A study of Mus musculus with 4 samples.

Results

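The cells described here are tumour cells with high keratin 19 RNA, little trefoil factor 1 RNA and at least 1 molecule of Epcam RNA, taken from mouse pancreatic ductal adenocarcinoma (PDAC). They were chosen cell by cell from RNA counts. Each barcode had 500 or more unique molecules (UMIs) over 300 or more genes, with no more than 20% of the UMIs mitochondrial. It also had Krt19 at 10 or more per 10000 UMIs, Epcam at 1 UMI or more, no UMI of the leukocyte gene Ptprc and Tff1 below 10 per 10000 UMIs. Of 45685 cells that passed the quality limits, 114 met the rule. They numbered 57 in GPH, 47 in G, 10 in PH and 0 in Control. GPH is the library of tumours given gemcitabine, paricalcitol and hydroxychloroquine together. Its treatment label breaks off after gemcitabine (60 mg/kg), so the other drugs are read from the title. G is the library given gemcitabine, PH the one given paricalcitol with hydroxychloroquine, and Control the one given PBS. Every library was made from dissociated tumour pieces pooled from 3 animals, with 1 library per group, and the strain, tumour line and age are not given in the sources used here. There is therefore no replicate and no test of any difference. Ratios carry 95% intervals that cover counting error only, and "higher" or "lower" means a ratio of 1.5-fold or more in CPM, the UMI count of a gene scaled to the UMIs summed over a population.

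Keratin 19 forms the intermediate filaments of duct cells and is a standard marker of ductal pancreatic tumours, and Epcam is an adhesion molecule of epithelial membranes. Trefoil factors are small secreted peptides that travel with mucins and mark the classical, gland-forming subtype of PDAC, which stands against a basal-like subtype. Gemcitabine is a nucleoside analogue that blocks DNA synthesis and acts on cells that replicate their DNA. Paricalcitol activates the vitamin D receptor, and hydroxychloroquine raises lysosomal pH and blocks the last step of autophagy. The comparison of GPH with G therefore addresses what accompanies the addition of the other 2 drugs to gemcitabine.

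The libraries held 143298547 UMIs in GPH, 144152432 in G, 190110092 in PH and 158887422 in Control, over 7918, 16748, 18589 and 13120 barcodes. More than 20% of UMIs were mitochondrial in 41.0% of GPH barcodes, against 15.6% in G, 12.7% in PH and 15.6% in Control. The quality limits left 4579, 14022, 16033 and 11051 cells. The ductal cells made up 1.24% of GPH cells (exact interval 0.944% to 1.61%) and 0.335% of G cells (0.246% to 0.445%). In Control, 0 of 11051 cells allow a share of up to 0.0271%. Of the G cells 48.9% had Ptprc without Krt19 or Epcam, against 1.90% of the GPH cells, so the shares have very different remainders. No ductal cell shared its barcode with another library.

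Depth differed between the groups. The median ductal cell held 35943 UMIs in GPH and 20519 UMIs in G, and the summed totals were 2207090 and 1155412 UMIs. Krt19 had a median of 48.6 per 10000 UMIs in GPH and 33.3 in G. Epcam, required by the rule, had a median of 2 UMIs per cell in GPH and 3 in G, and rested on 1 UMI in 24 of 57 GPH cells and 17 of 47 G cells. Free RNA can supply such a UMI, so the same share was taken where Epcam was not used for choosing cells. Among vimentin-high cells, 3 of 1494 in GPH (0.201%) and 6 of 1682 in G (0.357%) had an Epcam UMI at median depths of 14528 and 9880 UMIs. Among Krt19-high cells without Ptprc, 69 of 2181 in GPH (3.16%) and 49 of 1253 in G (3.91%) had one at 42543 and 28886 UMIs. In immune cells the share was 3.33% in GPH and 6.08% in G at only 2382 and 4392 UMIs, so the share alone does not set the Krt19-high cells apart from immune cells. Of the cells with an Epcam UMI, 32 of 69 in GPH and 19 of 49 in G had only 1 among the Krt19-high cells, against 3 of 3 and 369 of 444 among the immune cells. The highest ductal cell had 29 Epcam UMIs in GPH and 46 in G. The Epcam requirement thus picked a small fraction of the Krt19-high cells, and most cells like them, 1507 in GPH and 874 in G, had no Epcam UMI. Those Epcam-0 Tff1-low cells serve below as the nearest comparison.

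Cells close to the limits were few. Tff1 was at 0 in 33 of 57 GPH cells and 37 of 47 G cells, and the cell nearest below the limit had 5.55 per 10000 in GPH and 5.04 in G. No Epcam-positive cell lay between 10 and 20. Krt19 between 10 and 12 per 10000 was found in 1 GPH and 3 G cells, and between 8 and 10, just outside, in 4 GPH cells and 1 G cell.

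The cells were not all of one origin. Xist, the RNA expressed from the inactive X of females, was present in 3 of 57 GPH, 9 of 47 G and 10 of 10 PH cells, while Y-linked UMIs were present in 41, 33 and 0 of them. The 10 PH cells carried no UMI of Agr2, Tff1, Tff2 or Tff3. Among their high genes were Fabp1 (8053 CPM), Fabp2 (4210 CPM), Apoa1 (4021 CPM), Apoa4 (2151 CPM), Guca2b (1595 CPM) and Sis (1187 CPM). These are genes of fatty acid and apolipoprotein handling, of a gut peptide and of a sugar-digesting enzyme. Reg3b stood at 9401 CPM. Rbp2 (6172 CPM) and Lgals4 (4411 CPM) were high too, but also in the other libraries. Rbp2 had 2653 CPM in the GPH and 2256 CPM in the G cells, and Lgals4 had 4450 and 2735 CPM. The PH cells were not uniform, as 1 had no Fabp1 UMI and 46 UMIs of the fibroblast gene Dcn. The PH cells, all with Xist and none with Y-linked UMIs, go against the tumour label and are left out of every comparison. Summed over cells, the Xist-positive GPH and G cells also differed from their neighbours, most plainly in claudins, which seal tight junctions. They were not uniform, and 1 in GPH and 3 in G also had Y-linked UMIs. Some had no UMI of Cldn3, Cldn4 or Cldn7, and some Xist-0 cells had such UMIs. Cldn7 had 368 CPM in the Xist-positive and 0.930 CPM in the Xist-0 cells of GPH, and 192 and 4.27 CPM in those of G. The secreted iron-siderophore binder Lcn2 had 2138 and 18.1 CPM in GPH, and 328 and 8.55 CPM in G. A single cell held 74.5% of the 161 Lcn2 UMIs of all GPH ductal cells and 27.5% of the 80 in G. Where most UMIs of a gene lay in these cells, its level without them is also given.

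**Figure D1:**
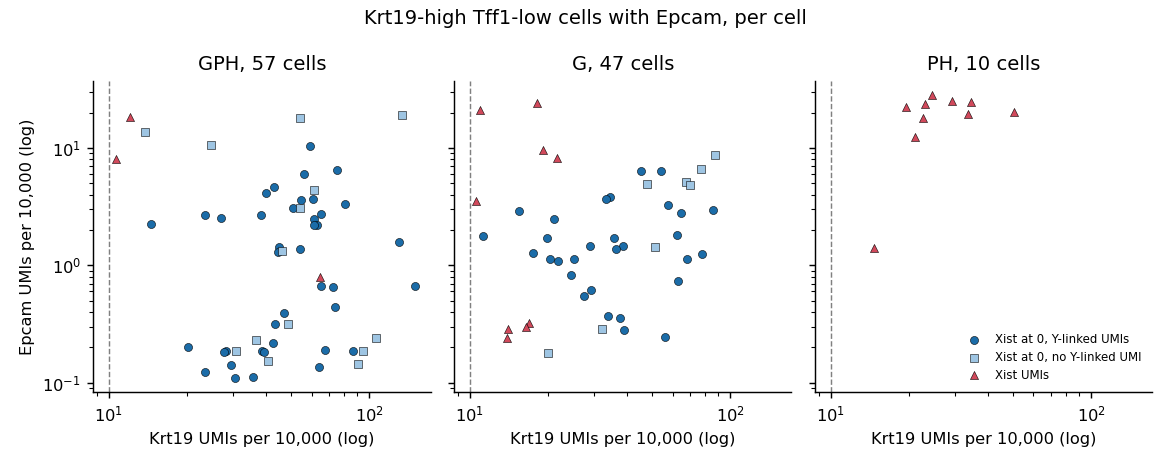
Krt19 (x axis, UMIs per 10000, log scale) against Epcam (y axis, UMIs per 10000, log scale) for each of the 57 GPH, 47 G and 10 PH cells. Symbols mark cells with Xist, cells without Xist that carry Y-linked UMIs, and cells with neither, and the dashed line is the Krt19 limit of 10. All 10 PH cells carry Xist.

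Markers of most other cell types were low. The 8 mesothelial markers summed to 5558 CPM in GPH and 3694 CPM in G, of which Krt19 itself, the gene of the rule, held 5370 and 3601 CPM. Mesothelin, Msln, which pancreatic tumours also express, had 184 and 71.0 CPM, and Wt1, Gpm6a and Rspo1 were at 0. The 9 tuft cell markers summed to 5.89 CPM in GPH and 29.4 CPM in G. All 10 islet and all 5 erythroid markers were at 0 in GPH and G. Summed levels were 137 CPM in GPH and 173 CPM in G for 19 acinar markers, 38.1 and 16.4 CPM for 8 fibroblast markers, 32.2 and 37.2 CPM for 8 T cell markers, 4.08 and 21.6 CPM for 8 macrophage markers, 1.36 and 15.6 CPM for 7 neutrophil markers and 4.98 and 0.865 CPM for 7 endothelial markers. The macrophage and neutrophil sums were thus higher in the G cells, and their part in the results was not tested.

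Against G, mitosis and DNA replication genes were mostly lower in the GPH cells, at 17 of 18 and 11 of 15 measured, and immediate early and classical PDAC genes mostly higher, at 14 of 19 and 11 of 17. Over 5138 measured genes, 1536 were higher in GPH (29.9%) and 454 were lower (8.84%). The median log2 ratio of all measured genes was 0.27, and 872 genes were higher and 868 lower once ratios were centred on it, a balance that centring itself tends to give. Close medians were found in Epcam-0 Tff1-low cells (0.25) and in vimentin-high tumour cells (0.26). Part of the differences were shared with the Epcam-0 Tff1-low cells, in which 859 of 4935 genes were higher (17.4%) and 137 lower (2.78%). Of the 1536 higher genes, 634 were also higher in those cells, and of the 454 lower genes, 134 were also lower, from the same libraries. The highest cell held at least 50% of the UMIs for 7 of the 1536 higher genes in GPH and for 14 of the 454 lower genes in G. With the Xist-positive cells left out (54 cells in GPH, 38 in G), 1580 of 5085 genes were higher and 432 lower.

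Among genes ranked by the interval bound nearest to 0, those higher in GPH included several known from gut epithelium. Lypd8, which coats the colon surface and keeps flagellated bacteria away (chr11:58379043-58390728), had 4133 CPM in GPH and 442 CPM in G, a log2 ratio of 3.22 (3.10 to 3.36). Muc3, a membrane mucin (chr5:137134922-137149322), had 442 CPM in GPH and 65.8 CPM in G (2.75). Alpi, intestinal alkaline phosphatase, had 101 and 10.4 CPM (3.29), with 75% of the 12 G UMIs in 1 cell. These products sit on, or are shed from, the luminal face of gut epithelium. Prom1, which shapes membrane protrusions, had 63.9 CPM in GPH and 6.06 CPM in G (3.40), and without the Xist-positive cells 63.7 and 1.07 CPM, with 1 UMI left in G. Mal2, which sorts proteins to the apical membrane, had 101 and 14.7 CPM (2.78). Mucl3, mucin-like 3, had 581 and 97.8 CPM (2.57).

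The other genes among the 12 highest were of mixed kinds. The drug efflux pump gene Abcb1a (chr5:8660077-8748575) had 91.5 CPM in GPH and 4.33 CPM in G, a log2 ratio of 4.40 (3.16 to 6.04). Its 202 GPH UMIs came from 44 of 57 cells. The glutathione transferase Gsta1 had 1012 and 104 CPM (3.28). Immune cells of the same libraries held 39.8 and 22.5 CPM of Abcb1a and 13.3 and 0.755 CPM of Gsta1. The GPH immune cells were only 87, with 301300 UMIs in all, so their levels rest on few molecules. Abcb1a had 12 UMIs and Gsta1 had 4 UMIs in them. Apob, the protein of chylomicrons and LDL, had 260 CPM in GPH and 31.2 CPM in G (3.06), and 47.2% of the 36 G UMIs lay in 1 cell. Apoa1, the main protein of HDL, had 77.5 and 0.865 CPM (6.48, 3.99 to 11.80), but 91.8% of its GPH UMIs came from 1 cell and G had 1 UMI. The secreted ribonuclease Rnase4 had 58.9 and 6.92 CPM (3.09), and the non-classical MHC gene H2-T23 had 133 and 19.9 CPM (2.74). Lypd8 (1.84 and 3.69), Gsta1 (1.84 and 2.47) and Abcb1a (1.70 and 2.50) were also higher in GPH in the Epcam-0 Tff1-low and the vimentin-high cells. In the vimentin-high cells all 3 were under the minimum of 20 CPM in both libraries. Lypd8 had 15.5 CPM in GPH and 1.20 CPM in G there, Gsta1 16.3 and 2.95 CPM, and Abcb1a 14.5 and 2.58 CPM. The part of free RNA in these levels was not tested. Gsta1 and H2-T23 belong to families of near-identical copies, whose counts are uncertain.

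The 12 lowest included genes of antioxidant defence, histones, interferon and secretion. Gpx2, a gut glutathione peroxidase (chr12:76792333-76795554), had 2.27 CPM in GPH and 152 CPM in G, a log2 ratio of -6.07 (-7.71 to -4.82), from 5 and 176 UMIs. It was also lower in the Epcam-0 Tff1-low cells (-4.43). In the vimentin-high cells the ratio was -4.28, but from only 2 UMIs in GPH and 31 UMIs in G. The stomach and pancreas trefoil peptide Tff2 had 104 and 685 CPM (-2.72), with 65.1% and 58.8% of its UMIs in 1 cell each. The secretory protein Crisp1 had 45.8 and 398 CPM (-3.12), and 79.2% of the GPH UMIs came from 1 cell. Tff2 and Crisp1 were thus carried by few cells. The lipid carrier Apoe had 32.2 CPM in GPH and 196 CPM in G (-2.60), with 67.6% and 61.5% of its UMIs in 1 cell each. Without the Xist-positive cells, 9 of its 71 GPH UMIs and 30 of its 226 G UMIs were left, at 4.19 and 32.05 CPM (-2.94). Apoe stood at 6.64 CPM in the 87 immune cells of GPH and 1644 CPM in the 6854 of G, and its part of free RNA was not tested. The S-phase histones Hist1h2ap (52.1 and 728 CPM, -3.80) and Hist1h2ae (12.7 and 159 CPM, -3.65), the chromatin protein Hmgb2 (138 and 602 CPM, -2.13) and the PCNA partner Pclaf (21.3 and 106 CPM, -2.32) were lower too. A single cell held 63.5% of the Hist1h2ap UMIs in GPH and 41.3% in G, and immune cells held 378 and 1646 CPM of it. The histones are a family of near-identical copies and their counts are uncertain.

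**Figure D2:**
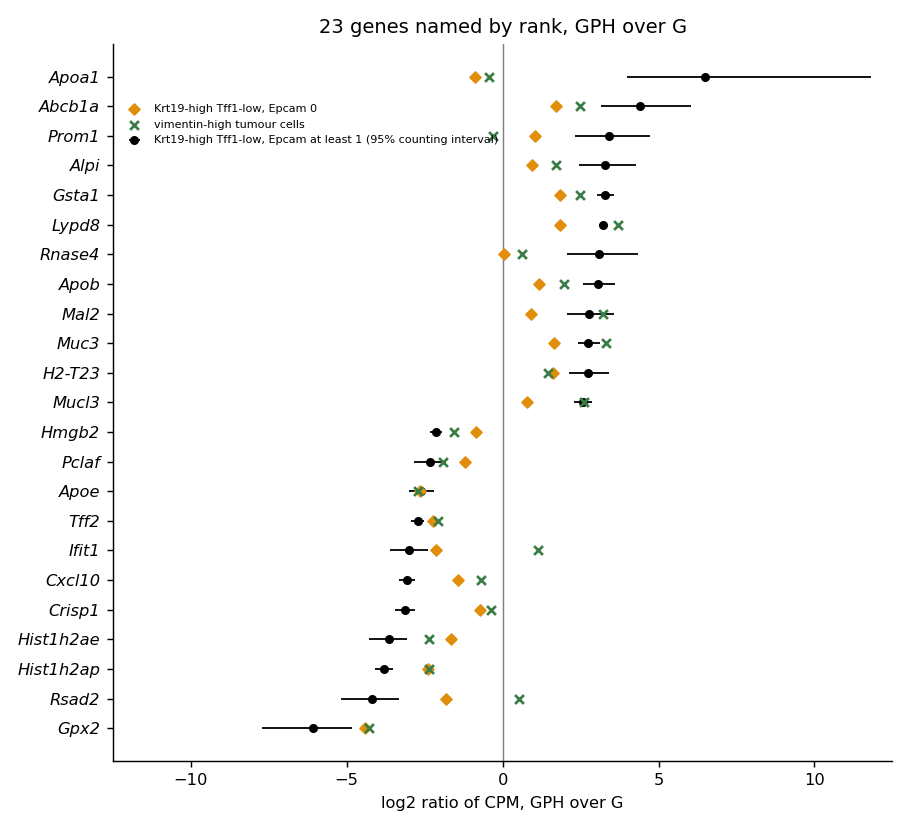
Log2 ratio of CPM, GPH over G, for the 12 highest and 11 of the 12 lowest genes of the ranking. Black points with 95% counting intervals are the Epcam-positive Krt19-high Tff1-low cells, orange diamonds the same kind of cell without Epcam, and green crosses vimentin-high tumour cells. Gpx2 lies low in all 3, whereas Ifit1 and Rsad2 lie above 0 only in the crosses.

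Mitosis genes formed the most uniform group. Of 18 measured, 17 were lower in GPH, 0 were higher and Kif23 was neither, with a median log2 ratio of -1.89 against 0.27 over all measured genes. Mki67, the nuclear antigen of dividing cells, had 7.70 CPM in GPH and 32.9 CPM in G (-2.09, -3.01 to -1.23). Top2a, which untangles sister DNA, had 25.4 and 93.5 CPM (-1.88). Cdk1, the kinase that starts mitosis, had 15.0 and 58.0 CPM (-1.96). These levels rest on few molecules, 17, 56 and 33 UMIs in GPH and 38, 108 and 67 UMIs in G. Aurkb, the kinase of the chromosomal passenger complex, had the lowest ratio at 2.72 and 21.6 CPM (-2.99). Birc5 (survivin, of the same complex) had 30.4 and 119 CPM (-1.98). The ubiquitin-conjugating enzyme Ube2c, which serves the anaphase-promoting complex, had 51.2 and 122 CPM (-1.25), and that complex's activator Cdc20 had 10.9 and 22.5 CPM (-1.05). Without the Xist-positive cells the count was 17 lower of 18 and the median -1.76. In the Epcam-0 Tff1-low cells 0 of 15 were higher or lower (median -0.08), while the vimentin-high median was -1.08.

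Promoters of 4 of these genes are shown as examples of those that hold the letters of both cell-cycle promoter elements. The promoter of Mki67 holds both too and is not printed. The elements are CCAAT and TTTGAA, each on either strand (ATTGG and TTCAAA in reverse), in capitals. Each run is the 150 bases before the annotated start, on the strand of the gene, from RefSeq on GRCm38.p6.
Cdk1 (chr10:69352913-69353062, minus strand): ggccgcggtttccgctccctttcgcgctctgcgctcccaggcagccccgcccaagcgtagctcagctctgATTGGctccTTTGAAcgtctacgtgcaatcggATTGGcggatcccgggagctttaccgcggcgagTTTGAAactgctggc
Top2a (chr11:99024190-99024339, minus strand): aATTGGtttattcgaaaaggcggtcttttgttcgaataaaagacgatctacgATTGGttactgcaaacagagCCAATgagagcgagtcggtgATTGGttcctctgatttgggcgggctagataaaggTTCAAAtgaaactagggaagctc
Ube2c (chr2:164769779-164769928, plus strand): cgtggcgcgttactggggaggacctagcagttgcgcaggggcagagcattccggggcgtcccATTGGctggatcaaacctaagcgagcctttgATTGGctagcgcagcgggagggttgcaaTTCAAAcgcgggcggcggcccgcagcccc
Cdc20 (chr4:118437344-118437493, minus strand): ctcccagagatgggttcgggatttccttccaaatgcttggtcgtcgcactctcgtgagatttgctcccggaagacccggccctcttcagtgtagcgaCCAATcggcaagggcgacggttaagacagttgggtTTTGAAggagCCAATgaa
In the 250 bases before the start, CCAAT occurred in 13 of the 15 measured mitosis genes with a promoter in the table (86.7%) and in 33.8% of all 32851 promoters. TTTGAA occurred in 6 of 15 (40%) and in 16.0% of all, and both in 6 of 15 and in 5.55% of all. The letters overlap in none of the 4 runs printed, and a match is not a binding site.

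Division was concentrated in few cells. At least 5 mitosis UMIs per 10000 were found in 8 of 57 GPH cells (14.0%, exact interval 6.26% to 25.8%) and 12 of 47 G cells (25.5%, 13.9% to 40.3%), intervals that overlap. Those cells held 74.5% of the mitosis UMIs in GPH and 92.5% in G. After each cell was thinned to 5000 UMIs, which left 52 GPH and 43 G cells, the summed mitosis level had a median of 1 per 10000 in GPH and 0 in G, and an upper quartile of 2 and 10. So the G cells had the longer upper tail, and the middle cell did not differ in that direction. In Epcam-0 Tff1-low cells the share with 5 or more was 13.3% in GPH and 17.4% in G, and in vimentin-high cells 14.3% and 35.1%.

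DNA replication genes moved with mitosis. Of 15 measured, 11 were lower in GPH and 0 higher (median -0.87), where 8.84% of all measured genes were lower and 29.9% higher. Rrm2 and Rrm1, the subunits of ribonucleotide reductase, the enzyme that gemcitabine diphosphate inhibits, had 4.08 CPM in GPH and 32.9 CPM in G (-3.01) and 10.9 and 26.8 CPM (-1.30). The helicase subunit Mcm5 had 4.53 and 21.6 CPM (-2.26), and the sliding clamp Pcna had 80.2 and 132 CPM (-0.71). When cells with 5 or more mitosis UMIs per 10000 were left out, the median of the list turned to 0.20. In those 49 GPH and 35 G cells the list was no longer lower.

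Of 12 measured genes that transport, activate or are targets of gemcitabine, 3 were higher and 5 lower in GPH. Among all measured genes 29.9% were higher and 8.84% lower. Beside Rrm1, Rrm2 and thymidylate synthase Tyms (23.1 and 39.8 CPM, -0.78), the lower ones were the nucleoside diphosphate kinase Nme1 (390 and 594 CPM, -0.61) and the efflux pump Abcc4 (22.7 and 34.6 CPM, -0.61). Higher were Samhd1, which hydrolyses deoxynucleotide triphosphates (77.0 and 40.7 CPM, 0.92), the nucleotidase Nt5c2 (43.5 and 26.0 CPM, 0.74) and the efflux pump Abcc5 (23.6 and 8.65 CPM, 1.44). The list's median was -0.13.

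Type I interferon genes were mostly lower in the GPH cells but rested on few cells. Of 17 measured, 9 were lower and 1 higher (median -0.65), where 8.84% of all measured genes were lower and 29.9% higher. Cxcl10, a chemokine that draws T cells and is induced by interferon, had 77.5 CPM in GPH and 647 CPM in G (-3.06, -3.31 to -2.82). Rsad2 (viperin) had 5.44 and 98.7 CPM (-4.18), and Ifit1, which binds foreign RNA, had 13.6 and 108 CPM (-2.99), but 75.4% and 78.4% of their G UMIs lay in 1 cell. The membrane antiviral protein Ifitm3 was spread more widely, at 170 and 473 CPM (-1.47), in 34 of 57 GPH and 41 of 47 G cells. Without the highest cell of each gene the median was -0.09, and in the 18 GPH and 19 G cells with Vim below 10 per 10000 it was 0.80, so the direction of the list was not stable. It was 0.54 in the Epcam-0 Tff1-low and 0.72 in the vimentin-high cells. Immune cells held 36.5 and 241 CPM of Cxcl10, 19.9 and 114 CPM of Rsad2, and 3.32 and 91.0 CPM of Ifit1 in GPH and G. The GPH values rest on few UMIs, from 87 immune cells with 301300 UMIs in all.

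Immediate early genes were higher in GPH in all 3 kinds of tumour cell. This list responds within minutes to growth factors and to tissue dissociation. In the ductal cells 14 of 19 were higher and 1 lower (median 0.74), where 29.9% of all measured genes were higher. Junb had 1134 CPM in GPH and 400 CPM in G (1.50, 1.36 to 1.65), Jun had 770 and 329 CPM (1.23), and the ERK phosphatase Dusp1 had 446 and 151 CPM (1.56). Egr3, at 4.08 and 28.6 CPM, was the lower one (-2.81). The medians were 0.73 in Epcam-0 Tff1-low and 0.94 in vimentin-high cells. After thinning, the median cell had 91 UMIs of the list per 10000 in GPH and 50 in G. In ductal cells of 10000 to 30000 UMIs (16 GPH, 22 G) the list's median was 0.49. Whether handling differed between the libraries cannot be told apart from treatment.

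Genes of glycolysis and the hypoxia response were higher, at 12 of 21 with 0 lower (median 0.64), where 29.9% of all measured genes were higher (median 0.27). The list's median fell below 1.5-fold, to between 0.37 and 0.56, under 6 alternatives, among them the cells with Xist at 0 (0.54, with 9 of 22 higher). Hk2, the inducible hexokinase, had 472 CPM in GPH and 161 CPM in G (1.55, 1.32 to 1.78). Vegfa, the vessel growth factor, had 96.1 and 38.1 CPM (1.33), and Pdk1, which closes entry to the citric acid cycle, had 33.1 and 16.4 CPM (1.01). Gapdh (1699 and 1459 CPM, 0.22) and Ldha (720 and 574 CPM, 0.33) were within 1.5-fold. Nuclear-encoded respiratory chain genes had 4 higher and 1 lower of 29 (median -0.08). The glycolysis median was 0.43 in Epcam-0 Tff1-low and 0.16 in vimentin-high cells.

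Classical PDAC genes were mostly higher, and Tff2 and Agr2 were lower. Of 17 measured, 11 were higher, 2 lower and 4 neither (median 0.70), where Tff1 was used by the rule. Among all measured genes 29.9% were higher. With Xist at 0, 9 of 17 were higher. Tff3 was higher at 199 and 120 CPM, but had 13.7 and 10.6 CPM without its highest cell in each library. Hnf4a, a regulator of gut and liver epithelium, had 56.2 CPM in GPH and 22.5 CPM in G (1.32). The membrane mucin Muc1 had 246 and 77.9 CPM (1.66), and the intestinal cadherin Cdh17 had 277 and 110 CPM (1.33). Anxa10 had 115 and 32.02 CPM (1.85, 1.34 to 2.38), and the galectin Lgals4 had 4450 and 2735 CPM (0.70). Agr2, the endoplasmic reticulum isomerase that mucins need, had 1231 and 2967 CPM (-1.27), and 53.8% of the G UMIs came from 1 cell. In the mucus list 8 of 12 were higher and 2 lower (median 0.90), against 29.9% of all measured genes higher, but its summed level was 2364 CPM in GPH and 4112 CPM in G. Its median was 0.57 with Krt19 at 20 or more and 0.55 in cells of 10000 to 30000 UMIs and in cells low in mitosis genes. Single genes included the glycosyltransferase Gcnt3 at 179 and 45.9 CPM (1.97) and Fcgbp, a partner of secreted mucin, at 98.8 and 24.2 CPM (2.03). The classical medians were 0.58 in Epcam-0 Tff1-low cells and 0.86 in vimentin-high cells. Of 15 ductal markers, 4 were higher and 5 lower, where 29.9% of all measured genes were higher and 8.84% lower. Krt19 and Epcam in this list were used by the rule, and Epcam (133 and 235 CPM) was among the lower. With Xist at 0, 3 of 13 were higher and 3 lower, where 31.1% of all measured genes were higher and 8.50% lower. E-cadherin, Cdh1, was higher (366 and 196 CPM, 0.90) and the duct regulator Sox9 was lower (68.9 and 180 CPM, -1.39). Cldn4 and Cldn7 were lower too (-1.50 and -1.93), but mostly from Xist-positive cells, without which they had 0.930 CPM each in GPH and 3.20 and 4.27 CPM in G.

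Lysosome genes, the place of hydroxychloroquine's action, had 14 of 33 higher and 0 lower (median 0.46), where 29.9% of all measured genes were higher (median 0.27). Centred on that median the list stood at 0.20. The protease Ctsb had 279 CPM in GPH and 128 CPM in G (1.12, 0.86 to 1.39), the acid lipase Lipa had 169 and 77.0 CPM (1.13), and Psap, the saposin precursor, had 174 and 83.1 CPM (1.07). Most proton pump subunits were within 1.5-fold, such as Atp6v1a (46.2 and 34.6 CPM, 0.42). When all cells were thinned to 5000 UMIs and the rule was applied again, 26 GPH and 26 G cells were left. The list's median was -0.13 in those cells. The list's median was 0.38 in Epcam-0 Tff1-low cells and 0.72 in vimentin-high cells. Autophagy genes had 4 higher and 1 lower of 17 (median 0.31), a smaller higher share than the 29.9% over all measured genes. The receptor Sqstm1 (523 and 447 CPM, 0.23) and Map1lc3b, which coats autophagosomes (212 and 242 CPM, -0.19), were within 1.5-fold, and the receptor Tax1bp1 was higher (468 and 248 CPM, 0.92).

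Of 7 measured vitamin D receptor genes and targets, 3 were higher and 1 lower (median 0.17). Among all measured genes 29.9% were higher and 8.84% lower (median 0.27). Vdr itself and Cyp24a1, the enzyme that degrades vitamin D and its best-known target, did not reach the minimum of 20 CPM. S100g, the calcium carrier calbindin D9k, had 396 CPM in GPH and 188 CPM in G (1.08), and the Notch target Hes1 had 141 and 54.5 CPM (1.37). Secreted Spp1, osteopontin, had 593 and 2086 CPM (-1.82). In the Epcam-0 Tff1-low cells the ratio of S100g was -0.42 and that of Spp1 -0.41. In the vimentin-high cells Spp1 went the other way, at 5003 CPM in GPH and 1843 CPM in G.

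The medians of the stress lists were within 1.5-fold. Over all measured genes, 29.9% were higher and 8.84% lower (median 0.27). Endoplasmic reticulum chaperone genes had 2 higher and 6 lower of 21 (median -0.11), a larger lower share than over all measured genes. Without the highest cell of the list in each library, 3 were higher and 4 lower. The secreted factor Manf was lower (227 and 470 CPM, -1.05), while the chief chaperone Hspa5 had 867 and 844 CPM (0.04). Integrated stress response genes had 5 higher and 0 lower of 13 (median 0.24), with Ddit4, an inhibitor of mTORC1, at 41.2 and 12.1 CPM (1.77). Heat shock genes had 1 higher and 1 lower of 14 (-0.01), p53 targets 3 and 1 of 12 (-0.09), cholesterol synthesis genes 1 and 1 of 16 (-0.19), and MHC class I genes 3 and 0 of 14 (0.36). The NRF2 and glutathione list had 6 and 1 of 20 (0.40), with Nfe2l2 itself at 167 and 83.1 CPM (1.00).

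**Figure D3:**
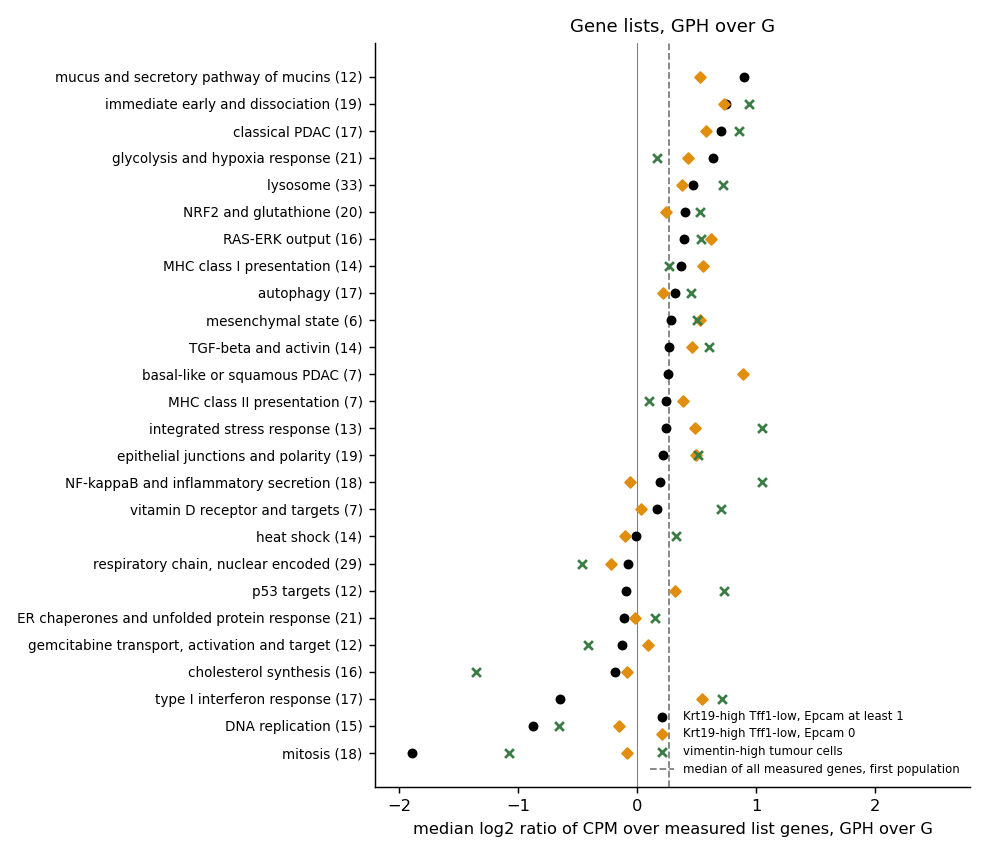
Median log2 ratio of CPM, GPH over G, for each gene list with at least 5 measured genes (number in brackets, counted in the first population). Black points are the Epcam-positive Krt19-high Tff1-low cells, orange diamonds those without Epcam, green crosses vimentin-high tumour cells, and the dashed line is the median of all measured genes, 0.27. Mitosis and DNA replication lie lowest at -1.89 and -0.87.

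**Figure D4:**
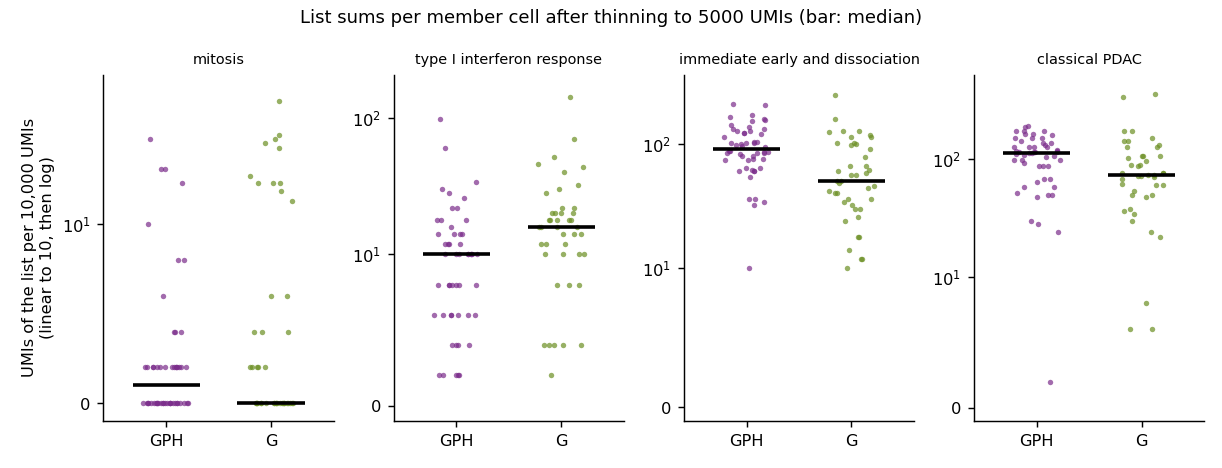
Summed UMIs per 10000 of 4 lists in each of 52 GPH and 43 G cells after thinning to 5000 UMIs, on axes linear to 10 and logarithmic above. Bars are medians: 1 in GPH and 0 in G for mitosis, 10 and 16 for interferon, 91 and 50 for immediate early genes, and 113 and 74 for classical genes.

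Set against the Epcam-0 Tff1-low cells of the same library, the ductal cells with Epcam differed little. Of 4363 measured genes, 76 were higher in both libraries (1.74%) and 31 lower in both (0.711%). Car2, a carbonic anhydrase, had 386 CPM in Epcam-positive and 49.9 CPM in Epcam-0 cells of GPH (log2 ratio 2.95, 2.84 to 3.06), and 163 and 17.9 CPM in G (3.19). Il1rn, the interleukin 1 receptor antagonist, had 71.6 and 8.58 CPM in GPH (3.06) and 96.1 and 8.26 CPM in G (3.54). These led the ranking among genes at 50 CPM or more. Among NF-kappaB inhibitors, Tnfaip3 had ratios of 2.06 in GPH and 1.63 in G, Tnip3 1.64 and 2.97, and Nfkbia 1.10 and 1.38. Muc3 (2.42 and 1.33), Agr2 (1.16 and 1.59) and the mast cell protease gene Mcpt2 (1.36 and 1.43) were higher too. In G, 53.8% of the Agr2 UMIs and 47.4% of the Mcpt2 UMIs came from 1 cell.

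Lower in the Epcam-positive cells were a retinol carrier and trefoil factors. The plasma retinol carrier Rbp4 had 139 and 394 CPM in GPH (-1.50) and 69.2 and 278 CPM in G (-2.004). Tff3 had ratios of -1.38 and -2.06, with 93.4% and 91.4% of the member UMIs in 1 cell each, and Tff2 had -1.11 and -0.63. The complement protein C3 had -1.31 and -0.80, the interferon-induced GTPase Iigp1 -0.79 and -0.72, and the glutathione transferase Gstm1 -0.69 and -1.64. In GPH, the C3 ratio was 0.078 with the Krt19 limit at 5 per 10000 and 0.055 as a mean over cells. No mitosis, respiratory chain or heat shock gene was higher in both libraries or lower in both. For mitosis the directions were opposite, with a median ratio over 14 measured genes of -1.13 in GPH and 0.46 in G.

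**Figure D5:**
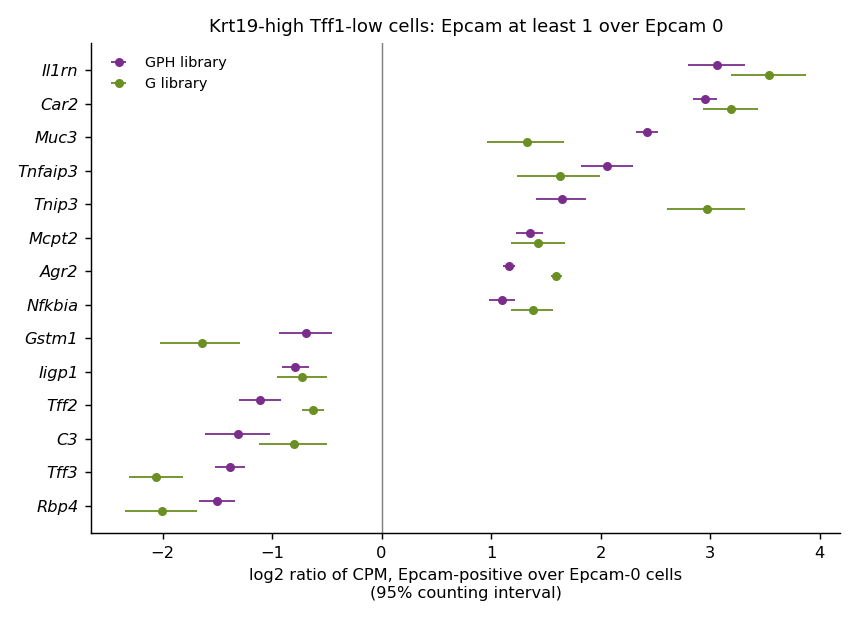
Log2 ratio of CPM of Epcam-positive over Epcam-0 Krt19-high Tff1-low cells, with 95% counting intervals, in the GPH library (purple, upper) and the G library (green, lower), for the 8 highest and 6 of the 8 lowest genes. Il1rn and Car2 lie near 3 in both libraries.

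Cells with Tff1 at 10 or more per 10000 and Epcam were rare, at 12 in GPH and 2 in G. Of 4182 measured genes, 278 were higher in the Tff1-low cells in both libraries (6.65%) and 72 lower (1.72%), and the G values rest on the 2 cells. Trefoil factors that the rule did not use followed Tff1. Tff3 had 199 CPM in Tff1-low and 2498 CPM in Tff1-high cells of GPH (-3.65) and 120 and 1684 CPM in G (-3.81), and Tff2 had 104 and 1666 CPM in GPH (-4.01) and 685 and 5853 CPM in G (-3.09). With the Krt19 limit at 20 per 10000, the Tff2 ratio in G was 3.45. Mucl3 (-1.46 and -1.96) and Muc1 (-0.67 and -1.76) were lower as well. Lypd8 was higher, with 4133 and 2010 CPM in GPH (1.04) and 442 and 39.5 CPM in G (3.49), as was Prap1, a gut acidic protein (1.05 and 1.87). The Lypd8 level in the Tff1-high cells of G rests on 3 UMIs.

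The Tff1-high cells without Epcam, 605 in GPH and 330 in G, gave a firmer comparison across the same Tff1 limit. Of 4356 measured genes, 119 were higher in the Epcam-positive Tff1-low cells in both libraries (2.73%) and 60 lower (1.38%). Tff3 had ratios of -4.92 in GPH and -4.64 in G, Tff2 -4.77 and -3.60, and Mucl3 -1.60 and -3.39. The pancreatic stress proteins Reg3b (-1.34 and -1.95) and Reg1 (-1.93 and -1.38) were lower too, as was the alarmin Il33 (-1.25 and -2.28). Car2 (2.18 and 4.27), Il1rn (4.46 and 4.34), Muc3 (2.88 and 2.40) and the adhesion molecule Vcam1 (1.99 and 3.24) were higher. Lypd8 was higher only in GPH, with 4133 CPM in the Epcam-positive Tff1-low and 1940 CPM in these Tff1-high cells. In G it had 442 and 511 CPM.

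The vimentin-high tumour cells had Vim at 20 or more per 10000 with Krt19 below 10 and no Epcam, Ptprc or Xist. Against them, the ductal cells were higher in most measured genes of the epithelial lists. Of 4799 measured genes, 954 were higher in both libraries (19.9%) and 955 lower (19.9%). Higher were 11 of 12 ductal markers, 16 of 17 classical PDAC genes, 10 of 10 mucus genes and 12 of 14 junction genes, although Krt19 and Epcam chose the cells. Claudin RNA was low all the same, with Cldn7 at 0.930 CPM in GPH and 4.27 CPM in G without the Xist-positive cells. Agr2 had 1231 CPM in ductal and 8.002 CPM in vimentin-high cells of GPH (7.27) and 2967 and 13.3 CPM in G (7.80). Muc3 had 442 and 0.918 CPM in GPH (8.91), and in G it had 65.8 and 0.0920 CPM (9.48). The tetraspanin-like genes Tm4sf5 (7.56 and 7.24) and Tm4sf20 (7.09 and 7.02) were far higher too. Mesenchymal genes showed the reverse, with 11 of 12 lower in both libraries, in a list that includes Vim, which chose the vimentin-high cells. The calcium-binding S100a4 had 92.9 and 3234 CPM in GPH (-5.12) and 124 and 5143 CPM in G (-5.38), and the fibrillar collagen Col3a1 had 24.5 and 682 CPM in GPH (-4.80) and 0.865 and 387 CPM in G (-8.80). The monocyte chemokine Ccl2 had ratios of -4.92 and -4.90. Vim itself had 1637 CPM in the ductal and 4436 CPM in the vimentin-high cells of GPH, and 1380 and 4070 CPM in those of G. It was not used to choose the ductal cells, but the rule for the vimentin-high cells set their Vim level high in advance. Immune cells held 1185 CPM of Vim in GPH and 1462 CPM in G. Mitosis genes were lower in the ductal cells, at 14 of 17 in both libraries (median -1.54 in GPH and -1.18 in G). MHC class II genes were higher at 5 of 7.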

How the data were processed

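Droplet single-cell RNA libraries of 4 groups were used, 1 library each. The deposited matrices give UMI counts as counted, unnormalized, for 32285 features. Per the submitters' processing notes, Cell Ranger 6.1 and mm10 were used; the version in the file headers is 7.0.1. How barcodes were called is not given in the sources used here. Groups came from the treatment labels and, for GPH, the title. The members, lists and tests were chosen with earlier results of these data known. UMIs were summed over the chosen cells of a library and scaled to their total (CPM). A gene was measured at 20 CPM in either library and 20 UMIs over both. The 95% intervals are exact conditional binomial for ratios and exact Clopper-Pearson for shares, for counting error only, and a count of 0 was given an upper limit of 3 counts. With 1 library per group no test was run, and genes were called by size alone at 1.5-fold. The ratios were checked on simulated sums without variation between cells, so the check does not cover genes carried by few cells. Comparisons with other cells were made within each library, and a gene counted when past 1.5-fold the same way in both.

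Named genes had at least 50 CPM and were ranked by the interval bound nearest to 0 (12 highest and 12 lowest for GPH over G, 8 and 8 for the others). Antigen receptor, globin, ribosomal, mitochondrial, Xist and Y-linked, and predicted genes, the genes of the rule and genes under 1/10 of their level in another population were left out, and members of the lists with large ratios or known roles were added. The comparisons with Epcam-0 cells were chosen later, with the values in view. Some genes that met the rule are not reported here. Where features share a symbol, the first was counted. Immune cells had Ptprc and no Krt19 or Epcam. Doublets were kept in the main values; as an alternative, the top Scrublet scores were removed at 0.8% per 1000 cells. Depth was equalised by thinning cells to 5000 UMIs, leaving out shallower ones. For list sums per cell, the cells already chosen were thinned. For gene counts, shares and list medians after thinning, all cells were thinned and the rule was then applied again. That left 26 GPH and 26 G cells. Gene positions are GENCODE vM21 on mm10, and promoters are RefSeq on GRCm38.p6, in which 15 of 18 measured mitosis genes were found. Tools were scanpy 1.11.5, scipy 1.17.1, matplotlib 3.10.9, pandas 2.3.3 and numpy 2.4.6 in Python 3.11.15.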

Additional observations from a re-analysis of the deposited data

Results flagged for a closer look

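The type I interferon list had a median log2 ratio, GPH over G, of -0.65 in the ductal cells and 0.72 in the vimentin-high tumour cells, so the directions were opposite. Ifit1 had -2.99 in the ductal and 1.13 in the vimentin-high cells, and 1 G cell held 78.4% of its G UMIs. Apoa1 had 6.48 in the ductal cells and -0.88 in the Epcam-0 Tff1-low cells, and 1 GPH cell held 91.8% of its GPH UMIs. None of these differences was tested, because each library stands alone.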

How the results depend on the processing

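No paired analysis was possible because each group is 1 library. The limits are these: each library pools 3 animals, so differences between libraries and between treatments cannot be told apart. The values rest on 57 and 47 cells, many lists on genes with few UMIs, and the GPH cells were deeper. Of the 24 named genes, each that had a value kept its direction under every setting, except Alpi, whose log2 ratio was -2.02 in cells of 10000 to 30000 UMIs. The settings with Xist at 0 and without the highest cell, and the comparisons with Epcam-0 cells, were chosen after seeing the data. Some settings left a gene with a 0 in the denominator and gave no value for it. The cause of a change was not tested unless named.

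Counts below are of genes higher and lower. Thinning here means that all cells were thinned and the rule applied again, with 26 GPH and 26 G cells. GPH over G then had 1583 measured genes. For GPH over G they were 634 and 192 at 2-fold, 295 and 157 at 100 CPM, 2721 and 761 at 5 CPM, 389 and 282 after thinning and 872 and 868 centred on the median. Against Epcam-0 Tff1-low cells they were 33 and 3 at 2-fold, 15 and 11 at 100 CPM, 237 and 104 at 5 CPM, 201 and 117 with Epcam at 2 UMIs or more, 343 and 275 after thinning, 136 and 98 as means of per-cell CPM, 374 and 174 in cells of 10000 to 30000 UMIs and 284 and 233 in cells with Vim below 10. There were 123 higher with Krt19 at 5 or more, and 63 lower in cells low in mitosis genes. Against Epcam-positive Tff1-high cells they were 90 and 13 at 2-fold, 38 and 18 at 100 CPM and 98 and 27 after thinning. Against vimentin-high cells they were 628 and 513 at 2-fold, 282 and 217 at 100 CPM and 1674 and 1880 at 5 CPM.

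The share of ductal cells was 0.7207% in GPH and 0.2139% in G with Epcam at 2 UMIs or more, 0.2425% in G with Krt19 at 20 or more, 0.704% in GPH after thinning, and 0 in PH with Xist at 0.

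List medians moved as follows. The mitosis median was -2.85 with Epcam at 2 UMIs or more, -2.16 centred and -2.50 in cells with Vim below 10. The glycolysis median was 0.90 with Epcam at 2 UMIs or more, 1.01 after thinning, 0.87 as means of per-cell CPM, 1.37 in cells of 10000 to 30000 UMIs and 0.84 both with Vim below 10 and without the highest cell, but fell below 1.5-fold, to 0.49 at 100 CPM, 0.56 with Krt19 at 5 or more, 0.55 without top Scrublet scores, 0.54 with Xist at 0, 0.37 centred and 0.52 in cells low in mitosis genes. The immediate early median fell below 1.5-fold in cells of 10000 to 30000 UMIs, with Vim below 10, centred and as means of per-cell CPM (0.48 to 0.53), and the DNA replication median did so with Epcam at 2 UMIs or more (-0.53) and as means of per-cell CPM (-0.58). The lysosome median was -0.13 after thinning and 0.20 centred. Centred medians were 0.43 for classical genes, 0.10 for MHC class I, -0.28 for heat shock and -0.34 for the respiratory chain, and the MHC class I median was 0.066 after thinning. The cholesterol median was -1.14 after thinning, 0.12 in cells low in mitosis genes, -0.68 in cells of 10000 to 30000 UMIs and 0.16 with Vim below 10. In cells of 10000 to 30000 UMIs the medians were 0.50 for classical genes, 0.15 for endoplasmic reticulum chaperones and 0.84 for TGF-beta genes. In cells low in mitosis genes the mesenchymal median was -0.76 and the DNA replication median reversed to 0.20. The interferon median reversed to 0.80 with Vim below 10.

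Several ratios against other cells reversed. In GPH against Tff1-high cells, Hist1h2ap was -1.20 in cells low in mitosis genes, -2.51 in cells of 10000 to 30000 UMIs and -2.38 with Vim below 10, and Ube2c was -0.30 and -0.047 under the first 2 of these. In G against those cells, Tff2 was 3.45 with Krt19 at 20 or more. Against Epcam-0 Tff1-low cells, C3 in GPH was 0.078 with Krt19 at 5 or more, 0.055 as means of per-cell CPM and 0.32 with Vim below 10, and Tff2 in G was 0.026 after thinning and 0.55 in cells of 10000 to 30000 UMIs.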
